A study of Mus musculus with 4 samples.

Results

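Transforming growth factor-β (TGF-β) and activin signaling was followed across the cell types of the mouse mammary gland through 9 genes, chosen by their symbols: the ligand genes Tgfb1, Tgfb2 and Tgfb3, the activin subunit genes Inhba and Inhbb, the latent TGF-β binding protein gene Ltbp1, and the receptor genes Tgfbr1, Tgfbr2 and Tgfbr3. They are 9 of the 28693 genes in the count tables, and all 9 were found. Single cells were taken from 4 mice, with 1 library per mouse and 2 libraries per condition. Both conditions carried floxed Lats1 and Lats2 (Lats1f/f;Lats2f/f) and the Cre-dependent reporter R26-lsl-EYFP. The mice labelled WT had no Cre and a heterozygous reporter, and they are called CTL here. The LATS1/2 KO mice (KO here) also carried Krt8-CreERT2, a tamoxifen-dependent Cre driven by the promoter of the luminal keratin gene Krt8, with a heterozygous reporter in replicate 1 and a homozygous one in replicate 2. All mice, CTL included, received 2 mg of tamoxifen intraperitoneally on 5 consecutive days, and several pairs of glands were taken per mouse 7 days after the last dose, dissociated and sorted for live cells with Calcein Blue AM.

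TGF-β ligands are secreted as latent dimers that latent TGF-β binding proteins anchor in the matrix until integrins or proteases release them. Released ligand binds the type II receptor kinase encoded by Tgfbr2, which recruits and activates the type I kinase encoded by Tgfbr1, and this in turn phosphorylates SMAD transcription factors. Activins, dimers of the subunits encoded by Inhba and Inhbb, act on the same SMADs through activin receptors, and in the mammary gland the pathway is known for restraining epithelial growth and for activating fibroblasts.

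After removal of cells with few genes or much mitochondrial RNA, 18200 of 20324 barcodes remained, between 3515 and 5272 per library, with a median of 5962.5 to 10141 unique molecular identifiers (UMIs, one per captured transcript) per cell. At most 12 barcodes were shared by any pair of libraries. Levels are given as CPM, the UMIs of a gene per 1000000 UMIs of all cells of a class in a library. The targeted genes were measured first. Luminal ER- levels of Lats1 were 25.6 and 25.2 CPM in the CTL libraries and 13.3 and 15.4 CPM in the KO libraries, and those of Lats2 were 15.0 and 16.8 CPM and 27.4 and 29.2 CPM. These 3′ tags need not lie in the deleted part of either gene, so they do not check the deletion. EYFP stood at 0.306 and 0.369 CPM in the CTL luminal ER- cells and at 89.3 and 132 CPM in the KO cells.

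Cell classes were taken from clusters named by marker lists, and most epithelial clusters held cells of 1 condition. CTL luminal ER- cells formed a cluster led by Cck and Atp6v1b1, while KO luminal ER- cells formed a cluster led by Wfdc3 and Kcnj15 and another led by Ube2c and Ankrd1. CTL luminal ER+ cells were mostly in a cluster led by Fxyd2 and Ptn and KO ones in a different cluster. CTL basal cells were in a cluster led by 1500015O10Rik and Cnn1 and KO ones in a cluster led by Krt5 and Gpx2. CTL fibroblasts were few, 60 and 25 cells, and nearly all iCAF-like, meaning that they carried markers of inflammatory fibroblasts (58 and 25 cells). KO fibroblasts, 332 and 974 cells, were iCAF-like (124 and 737 cells) or myCAF-like, with markers of contractile, matrix-producing fibroblasts (208 and 237 cells). Of the myCAF-like cells, 111 and 138 came from a cluster that passed 7 myCAF-like markers but also 7 perivascular markers. Its median depth was 2846 UMIs, and its markers do not set it clearly apart from perivascular cells. CPM is a level within a class, so it does not depend on how many cells of a class were captured, whereas the shares of a gene's UMIs given next do.

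Tgfb2, Inhba and Tgfbr2 are shown here by the 250 bases before their annotated starts, since these 3 genes were found together at their highest epithelial levels in the same KO cells. LATS1/2 act on the coactivators YAP and TAZ, whose DNA-binding partners are the TEAD factors, so TEAD letters were searched on both strands, with AP-1 and CRE letters beside them. The sequences are from RefSeq (GRCm38.p6), 5′ to 3′ on the strand of the gene, with motif matches in capitals.
Tgfb2, chr1:186705990-186706239 (−): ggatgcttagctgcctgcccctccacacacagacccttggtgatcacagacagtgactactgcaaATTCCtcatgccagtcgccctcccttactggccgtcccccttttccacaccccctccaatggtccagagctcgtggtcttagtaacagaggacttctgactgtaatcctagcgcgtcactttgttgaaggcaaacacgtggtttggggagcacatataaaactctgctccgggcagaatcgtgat
Inhba, chr13:16011601-16011850 (+): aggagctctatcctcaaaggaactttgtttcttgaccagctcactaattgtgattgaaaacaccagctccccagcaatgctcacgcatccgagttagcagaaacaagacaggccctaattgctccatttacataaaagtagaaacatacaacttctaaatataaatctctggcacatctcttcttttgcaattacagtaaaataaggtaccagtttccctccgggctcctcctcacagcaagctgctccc
Tgfbr2, chr9:116175364-116175613 (−): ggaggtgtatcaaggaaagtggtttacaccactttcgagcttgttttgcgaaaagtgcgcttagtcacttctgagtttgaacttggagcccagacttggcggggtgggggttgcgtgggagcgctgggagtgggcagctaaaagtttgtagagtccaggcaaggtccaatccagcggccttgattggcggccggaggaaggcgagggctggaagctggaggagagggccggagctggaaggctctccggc
The capitals in the Tgfb2 sequence are ATTCC, the reverse complement of GGAAT, and the others held no match. Windows from 250 bases before to 50 after a start were available for 7 of the 9 genes, 9 windows in all, and not for Tgfb3 and Tgfbr3. The full TEAD motif GGAATG was in 0 of 9 windows, beside 14.7% of all 32851 windows, and its core GGAAT, which overlaps it, in 3 of 9 (Tgfb2, Tgfbr1, Ltbp1), beside 38.7%. The AP-1 motif TGANTCA was in 0 of 9, beside 7.81%, and the CRE motif TGACGTCA in 1 of 9 (Ltbp1), beside 1.79%. Sequence outside these windows was not searched, so the counts do not cover sites farther from a start, and 9 windows are few. Tgfb2 lies on chromosome 1 (186622792 to 186705989, minus strand), Inhba on chromosome 13 (16011851 to 16031621, plus strand) and Tgfbr2 on chromosome 9 (116084293 to 116175360, minus strand) of GRCm38.

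The CTL gland had different leading sources for the 3 TGF-β ligands. CTL luminal ER- cells held 87.9% and 84.5% of all Tgfb2 UMIs and 82.3% and 74.3% of all Tgfb3 UMIs, whereas luminal ER+ cells held 63.0% and 67.7% of Tgfb1 UMIs. Orders of level are given over the named classes and fibroblast subtypes with at least 20 cells in each library of a condition, which leaves out CTL macrophages (10 and 8 cells), CTL perivascular cells (18 and 7 cells) and the unnamed epithelial clusters. By level among these, Tgfb1 was highest in CTL lymphocytes (247 and 244 CPM) and next in endothelial cells (139 and 149 CPM), and lowest in luminal ER- cells (12.9 and 14.6 CPM). The few CTL macrophages stood at 212 and 403 CPM, from 9 and 18 UMIs. In the KO gland Tgfb1 was highest in macrophages (221 and 186 CPM) and then in myCAF-like fibroblasts (169 and 181 CPM). Tgfb2 in KO was highest in myCAF-like fibroblasts (111 and 137 CPM), then in luminal ER- cells (85.8 and 88.4 CPM), and these did not overlap, while an unnamed KO cluster described further on stood above both. Tgfb3 was highest in luminal ER- cells in CTL (75.7 and 69.2 CPM), although the few CTL perivascular cells stood higher (156 and 195 CPM, 11 UMIs in each library), while in KO luminal ER- cells (50.2 and 82.1 CPM) overlapped perivascular cells (44.1 and 81.1 CPM). The cells were clustered on all variable genes, these 9 included, so the order of classes is a description with no test.

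**Figure D1:**
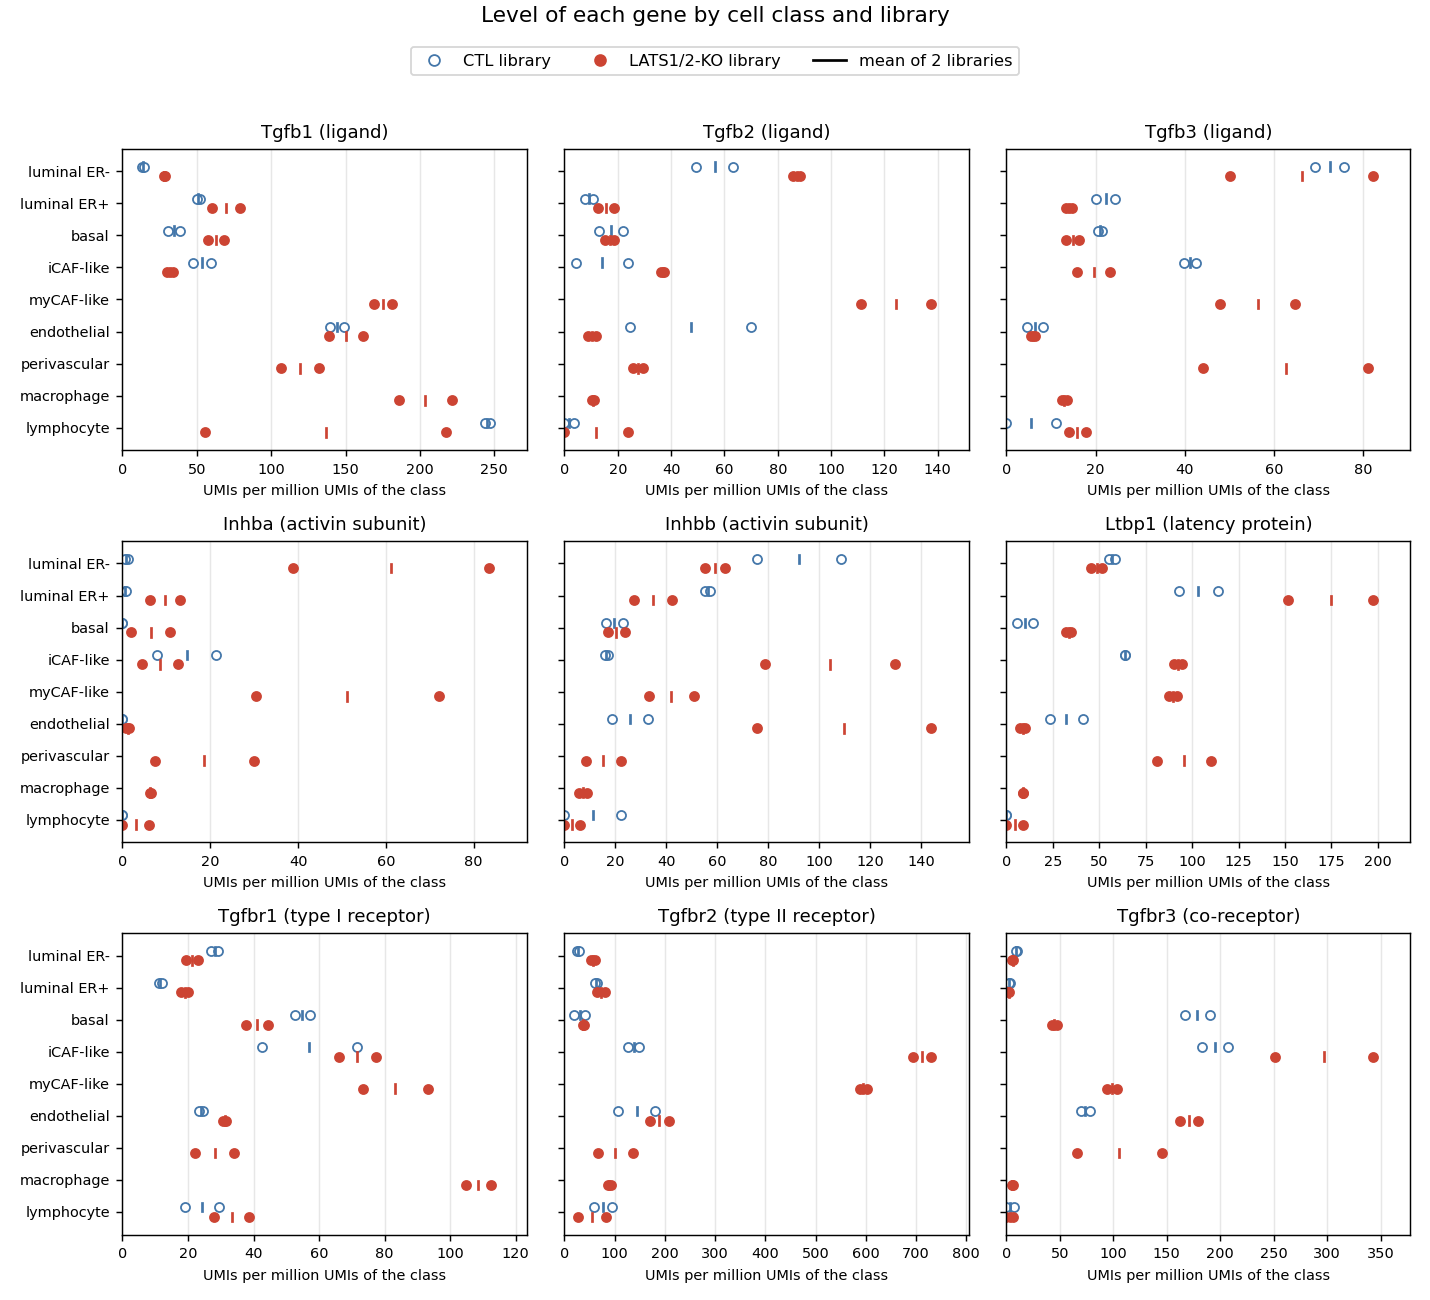
Levels of the 9 genes (1 panel each, x axis in CPM on a linear scale) in each cell class (y axis). Open points are the CTL libraries, filled points the LATS1/2-KO libraries and bars the mean of the 2 libraries of a condition. Inhba in luminal ER- cells moves from 1.15 and 0.646 CPM to 83.5 and 38.9 CPM, and Tgfbr3 in basal cells from 167 and 190 CPM to 42.4 and 47.5 CPM. Fibroblasts are drawn by subtype, and Tgfbr2 in iCAF-like cells moves from 149 and 127 CPM to 693 and 731 CPM.

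Which cells express the receptors answers where ligand could be received. Tgfbr2 in CTL was highest in endothelial cells (180 and 107 CPM) and fibroblasts (147 and 127 CPM), which overlapped, and was lowest in basal (41.3 and 19.0 CPM) and luminal ER- cells (24.3 and 28.9 CPM). In KO it was highest in iCAF-like fibroblasts (693 and 731 CPM) and then in myCAF-like fibroblasts (603 and 588 CPM). Fibroblasts held 1.89% and 0.858% of all Tgfbr2 UMIs in CTL and 30.6% and 52.2% in KO, a share that also follows the number of fibroblasts captured. Tgfbr1 was highest in CTL fibroblasts and basal cells, which the few CTL macrophages (118 and 22.4 CPM, from 5 and 1 UMIs) spanned, and in KO macrophages (105 and 112 CPM). Tgfbr3 was highest in CTL fibroblasts (173 and 207 CPM) and basal cells (167 and 190 CPM), which overlapped, and in KO iCAF-like fibroblasts (251 and 343 CPM).

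Conditions were compared in each class with edgeR's quasi-likelihood test on UMI counts summed per library, with Benjamini-Hochberg adjustment over all genes tested, and a gene is called where the adjusted p is under 0.05. With 2 libraries against 2, an exact permutation test of a single gene cannot go below p = 0.333, so these calls rest on a spread that edgeR estimates across genes. In luminal ER- cells, one of the luminal classes in which the Krt8 promoter drives Cre, 7 of 9 genes were called, 3 higher in KO (Tgfb1, Tgfbr2, Inhba) and 4 lower (Tgfbr1, Tgfbr3, Inhbb, Ltbp1). There, 64.9% of all genes tested were called, 33.6% higher and 31.4% lower. In luminal ER+ cells 5 of 9 were called, with Tgfbr1, Inhba and Ltbp1 higher and Tgfb3 and Inhbb lower, beside 29.1% of all genes (15.1% higher and 14.0% lower). In basal cells 3 of the 8 genes that could be tested were called, with Tgfb1 and Ltbp1 higher and Tgfbr3 lower, beside 33.5% of all genes (16.8% higher and 16.7% lower). In fibroblasts 3 of 9 were called, Tgfb2, Tgfbr2 and Inhbb, all higher, beside 3.45% of all genes (1.54% higher and 1.90% lower). In endothelial cells 3 of 7 tested were called, Tgfbr3 and Inhbb higher and Tgfb2 lower, beside 6.71% (3.09% higher and 3.62% lower). In lymphocytes 0 of 2 tested genes were called by edgeR, beside 1.66% (1.25% higher and 0.409% lower). There 0 had an unadjusted p under 0.05, and DESeq2 called 0 of 7. Leaving out 1 library lowered the luminal ER+ count to 2 (without KO replicate 1) or 3 (without KO replicate 2), the basal count to 1 (without CTL replicate 2) and the fibroblast count to 0 (without CTL replicate 1). The median log2 fold change of the genes tested was -0.47 in luminal ER- cells against 0.01 over all genes, and 1.02 in fibroblasts against 0.08.

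Fold changes are after scaling by the trimmed mean of M-values (TMM). With library totals alone the median of all genes in luminal ER- cells moved up by 0.34 and the share of called genes that were higher moved from 51.7% to 70.8%. In basal cells the median moved by 0.10. No called gene among the 9 changed direction under either scaling, and the call of Ltbp1 in luminal ER- cells was lost with library totals (log2 fold change -0.23, adjusted p = 0.0803).

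**Figure D2:**
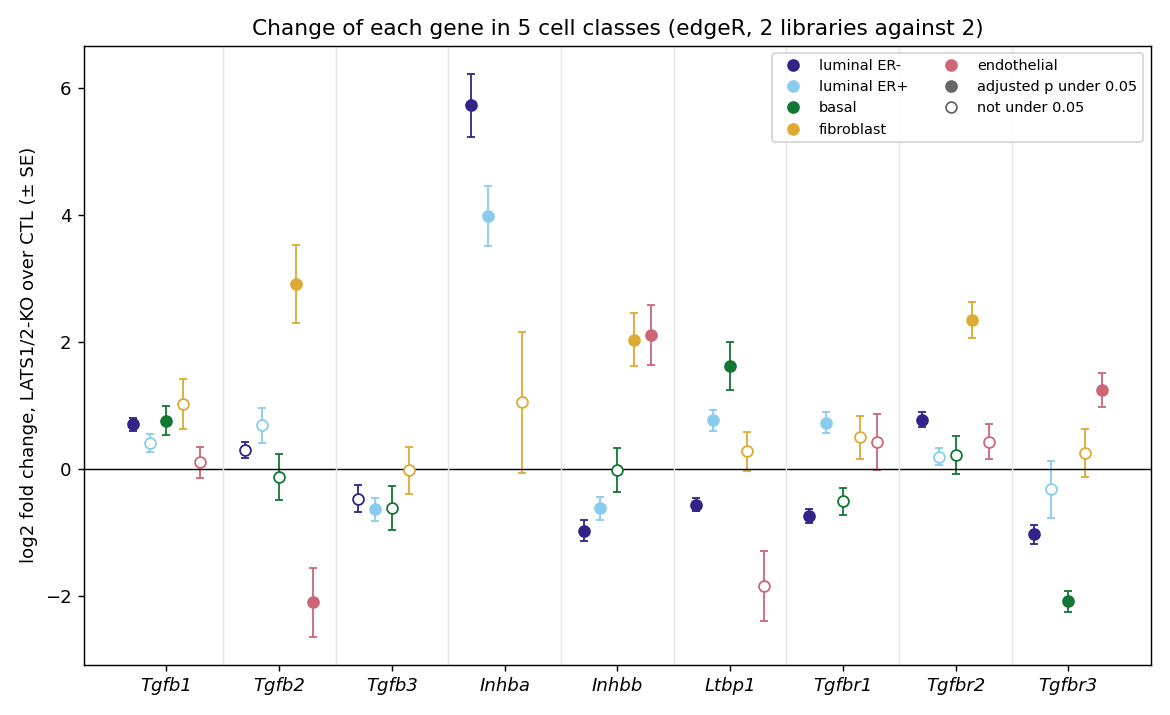
Log2 fold change of LATS1/2-KO over CTL (y axis) for each of the 9 genes (x axis), with bars for the standard error. The classes are luminal ER-, luminal ER+, basal, fibroblast and endothelial cells, and lymphocytes are not drawn. Inhba stands highest in luminal ER- and luminal ER+ cells, at 5.72 and 3.98, Tgfbr3 is lowest in basal cells, at -2.09, and Tgfb2 and Tgfbr2 are highest in fibroblasts, at 2.91 and 2.34.

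Of the secreted factors, Inhba, the activin A subunit, had the largest change in luminal cells. It stood at 1.15 and 0.646 CPM in CTL luminal ER- cells (30 and 14 UMIs) and at 83.5 and 38.9 CPM in KO (2009 and 1053 UMIs), so that both KO libraries lay far above both CTL libraries while differing from each other. The log2 fold change was 5.72 ± 0.49 (SE), or 52.7-fold, with an adjusted p of 0.0001 by edgeR. A UMI of Inhba was found in 0.782% and 0.664% of CTL luminal ER- cells and in 30.3% and 21.8% of KO luminal ER- cells, which had median depths of 9181 and 9684.5 UMIs. As a background, the shares were 0.760% and 0.380% in KO endothelial cells, at median depths of 4154 and 3677 UMIs, and 0% and 1.55% in KO lymphocytes, at 1557 and 2183 UMIs. In luminal ER+ cells Inhba rose from 0.484 and 0.822 CPM to 13.2 and 6.38 CPM (log2 fold change 3.98 ± 0.48, adjusted p = 0.00269 by edgeR). Luminal ER+ and luminal ER- cells thus moved in the same direction from similar CTL levels, with KO levels well below those of luminal ER- cells. Basal cells had 0 UMIs in either CTL library against 23 and 6 UMIs in KO (10.7 and 2.05 CPM), at least 2.64-fold higher when the CTL basal cells of both libraries together are set at 3 counts, and this was not tested. Free RNA, meaning transcripts from other cells, was an estimated 22.8% and 17.1% of the UMIs of KO basal cells. Over all KO cells Inhba stood at 74.4 and 36.1 CPM. How much of the KO basal count was free RNA was not tested. Fibroblasts stood at 19.3 and 7.96 CPM in CTL and at 53.6 and 11.7 CPM in KO, which overlapped. Within KO fibroblasts the level was 72.0 and 30.4 CPM in myCAF-like cells and 12.6 and 4.40 CPM in iCAF-like cells.

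Inhbb, the activin B subunit, was lower in KO luminal cells and higher in KO fibroblasts and endothelial cells. Luminal ER- cells stood at 75.6 and 108 CPM in CTL and 55.2 and 63.1 CPM in KO (log2 fold change -0.97 ± 0.17, adjusted p = 0.00226 by edgeR). In luminal ER+ cells it stood at 55.3 and 57.2 CPM against 42.3 and 27.4 CPM (log2 fold change -0.62, adjusted p = 0.0465 by edgeR). That luminal ER+ call was lost in 5 of 15 alternatives: with DESeq2, with thinned sums, with free RNA subtracted, with log-normalized classes and without KO replicate 2. The conditions did not overlap in either luminal class, and luminal ER- cells held 64.3% to 68.1% of all Inhbb UMIs in each of the 4 libraries. In fibroblasts Inhbb rose from 19.3 and 15.9 CPM to 75.2 and 65.9 CPM (log2 fold change 2.03 ± 0.42, adjusted p = 0.0395 by edgeR). CTL counts were only 5 and 2 UMIs, and the call was lost with DESeq2 and without either CTL library. Counted over iCAF-like cells alone, a comparison added after the data were seen, the log2 fold change was 2.62 (17 and 15.9 CPM against 130 and 78.7 CPM, adjusted p = 0.00669 by edgeR). In endothelial cells it rose from 32.8 and 18.7 CPM to 144 and 75.4 CPM (log2 fold change 2.10 ± 0.47, adjusted p = 0.0157 by edgeR), and in KO these cells were its highest level, overlapping iCAF-like cells. Basal cells showed 22.8 and 16.1 CPM against 17.2 and 23.6 CPM, which overlapped.

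Tgfb1, the TGF-β1 ligand, rose in luminal ER- and basal cells. It stood at 12.9 and 14.6 CPM in CTL luminal ER- cells and at 28.0 and 28.3 CPM in KO, where the libraries of a condition were close together (log2 fold change 0.70 ± 0.10, adjusted p = 0.0011 by edgeR). Basal cells stood at 38.5 and 30.8 CPM against 57.3 and 68.4 CPM (log2 fold change 0.76 ± 0.23, adjusted p = 0.0162 by edgeR). That call was lost with DESeq2, with thinned sums, without CTL replicate 2 and without KO replicate 2. In luminal ER+ cells, at 52.1 and 49.9 CPM against 60.3 and 79.1 CPM, the log2 fold change was 0.41 ± 0.14 with an adjusted p of 0.0706 by edgeR. Endothelial cells stood at 139 and 149 CPM against 139 and 162 CPM. In fibroblasts as a whole the level was 54.0 and 47.7 CPM in CTL against 126 and 75.2 CPM in KO (log2 fold change 1.02, adjusted p = 0.199 by edgeR). The subtypes differed in KO: iCAF-like cells stood at 30 and 33.7 CPM, below the CTL iCAF-like cells (59.4 and 47.7 CPM), and myCAF-like cells at 169 and 181 CPM.

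Tgfb2, the TGF-β2 ligand, rose in fibroblasts and fell in endothelial cells. Fibroblasts stood at 3.86 and 23.9 CPM in CTL, from 1 and 3 UMIs, and at 88 and 65.5 CPM in KO (log2 fold change 2.91 ± 0.61, adjusted p = 0.042 by edgeR). The call was lost without CTL replicate 1 and over iCAF-like cells alone (log2 fold change 1.78, adjusted p = 0.099), and KO myCAF-like cells stood at 111 and 137 CPM against 36.3 and 37.3 CPM in KO iCAF-like cells. Endothelial cells stood at 24.6 and 70.0 CPM in CTL and at 8.69 and 11.9 CPM in KO (log2 fold change -2.10 ± 0.54, adjusted p = 0.0331 by edgeR), from 6 and 15 CTL UMIs. Its main source, luminal ER- cells, stood at 63.3 and 49.3 CPM against 85.8 and 88.4 CPM. The conditions did not overlap, but the log2 fold change of 0.29 ± 0.13 missed the threshold (adjusted p = 0.0775 by edgeR). It passed with library totals alone (log2 fold change 0.63, adjusted p = 0.0037) and with the unnamed epithelial clusters included (0.62, adjusted p = 0.00432), both added after the data were seen.

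Tgfb3, the TGF-β3 ligand, was called in luminal ER+ cells only among the classes tested, at 20 and 24.4 CPM in CTL and 14.8 and 13.4 CPM in KO (log2 fold change -0.64 ± 0.18, adjusted p = 0.0414 by edgeR). That call was lost in 7 of 15 alternatives. These were DESeq2, removal of the highest Scrublet scores, thinned sums, log-normalized classes, and leaving out CTL replicate 2 or either KO library. The 2 KO libraries in luminal ER- cells, at 50.2 and 82.1 CPM, lay on both sides of the CTL libraries (75.7 and 69.2 CPM).

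Ltbp1, which holds latent TGF-β in the matrix, was highest in luminal ER+ cells in both conditions among the classes with at least 20 cells in each library. The few CTL perivascular cells stood at 113 and 160 CPM, from 8 and 9 UMIs. In luminal ER+ cells Ltbp1 rose from 114 and 92.7 CPM to 197 and 152 CPM (log2 fold change 0.77 ± 0.16, adjusted p = 0.0174 by edgeR), a call lost without KO replicate 1. Ltbp1 in basal cells stood at 14.3 and 5.86 CPM in CTL (10 and 4 UMIs) and at 32.2 and 34.9 CPM in KO. The log2 fold change was 1.62 ± 0.37 (adjusted p = 0.00274 by edgeR), a call lost with DESeq2 and without CTL replicate 2. It fell slightly in luminal ER- cells, from 55.1 and 58.7 CPM to 51.7 and 45.3 CPM (log2 fold change -0.56 ± 0.10, adjusted p = 0.00278 by edgeR). In endothelial cells it stood at 41.0 and 23.3 CPM against 10.3 and 7.14 CPM, which did not overlap and was not called (log2 fold change -1.84, adjusted p = 0.0682 by edgeR).

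The 2 signaling receptors moved in opposite directions in luminal ER- cells. Tgfbr2, the type II receptor, rose from 24.3 and 28.9 CPM to 53.7 and 60.6 CPM (log2 fold change 0.77 ± 0.12, adjusted p = 0.00117 by edgeR). Tgfbr1, the type I receptor, fell from 27.1 and 29.1 CPM to 19.3 and 23.0 CPM (log2 fold change -0.74 ± 0.11, adjusted p = 0.0011 by edgeR). The conditions did not overlap for either gene. In luminal ER+ cells it was Tgfbr1 that rose, from 11.2 and 11.9 CPM to 20 and 17.9 CPM (log2 fold change 0.73 ± 0.17, adjusted p = 0.0217 by edgeR). That call was lost with DESeq2, with thinned sums and without KO replicate 1. Tgfbr2 in luminal ER+ cells overlapped, at 64.2 and 59.9 CPM against 64.1 and 81.0 CPM. Neither receptor was called in basal cells. There Tgfbr1 stood at 52.8 and 57.1 CPM against 37.7 and 44.4 CPM (adjusted p = 0.0723 by edgeR) and Tgfbr2 at 41.3 and 19.0 CPM against 37.3 and 38.6 CPM.

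The largest receptor change outside the epithelium was Tgfbr2 in fibroblasts, from 147 and 127 CPM to 631 and 691 CPM. Both KO libraries lay far above both CTL libraries (log2 fold change 2.34 ± 0.29, adjusted p = 0.00711 by edgeR). CTL counts were 38 and 16 UMIs, and without CTL replicate 1 the adjusted p was 0.0605. Between CTL and KO iCAF-like cells alone the log2 fold change was 2.40 (149 and 127 CPM against 693 and 731 CPM, adjusted p = 0.000254 by edgeR), and KO myCAF-like cells stood at 603 and 588 CPM, so the higher level was found in both subtypes. Tgfbr1 in fibroblasts stood at 46.3 and 71.6 CPM against 74.7 and 73.7 CPM and was not called.

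Tgfbr3, the co-receptor betaglycan that presents TGF-β2 to the signaling receptors and binds inhibins, fell in basal cells from 167 and 190 CPM to 42.4 and 47.5 CPM (log2 fold change -2.09 ± 0.16, 4.25-fold lower, adjusted p = 2.7e-08 by edgeR). This call held under every alternative run, with log2 fold changes from -2.24 to -1.98. Luminal ER- cells fell from 9.83 and 8.77 CPM to 5.49 and 5.99 CPM (log2 fold change -1.03 ± 0.15, adjusted p = 0.000961 by edgeR). In endothelial cells it rose from 77.9 and 70.0 CPM to 163 and 179 CPM (log2 fold change 1.25 ± 0.27, adjusted p = 0.0133 by edgeR). In fibroblasts as a whole it overlapped (173 and 207 CPM against 143 and 275 CPM), but the subtypes differed. The iCAF-like cells stood at 183 and 207 CPM in CTL and 251 and 343 CPM in KO, which did not overlap. KO myCAF-like cells stood at 94.2 and 103 CPM. The CTL libraries had only 44 and 35 endothelial cells. All 3 endothelial calls (Tgfb2, Tgfbr3, Inhbb) were lost when a library was left out, except that of Inhbb without KO replicate 2. Without either CTL library the calls over all genes were lost as well, so that loss is not particular to these genes. Over all alternatives their log2 fold changes kept their signs, at -6.07 to -1.21, 1.17 to 1.38 and 1.60 to 2.58.

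Markers of other cell types moved with condition beside these results. In luminal ER- cells the summed level of the 9 basal markers was 34.3 and 24.6 CPM in CTL and 1681 and 1368 CPM in KO, that of the 7 fibroblast markers 27.5 and 12.3 CPM against 214 and 201 CPM, that of the 7 myCAF-like markers 9.94 and 8.54 CPM against 256 and 205 CPM, and that of the 8 luminal ER- markers 12969 and 15588 CPM against 6739 and 8036 CPM. In fibroblasts the myCAF-like list stood at 1346 and 477 CPM in CTL and 10015 and 4508 CPM in KO. In endothelial cells the fibroblast list stood at 250 and 9.33 CPM against 514 and 596 CPM. Estimated free RNA was 2.01% to 27.0% of UMIs over classes and libraries. The part of these markers in the results was not tested, but with free RNA subtracted 7 genes were called in luminal ER- cells, 4 in luminal ER+ cells and 3 each in basal cells, fibroblasts and endothelial cells.

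Whether a change differed between classes was tested as the interaction of condition and class, with the mouse as a block. Luminal ER- and luminal ER+ cells differed in 4 of 9 genes, beside 28.5% of all genes (15.8% higher and 12.7% lower). The change in luminal ER- cells was lower for Tgfbr1 (log2 difference -1.49, adjusted p = 0.000303 by edgeR) and Ltbp1 (-1.30, adjusted p = 8.14e-05) and higher for Inhba (1.89, adjusted p = 0.0105) and Tgfbr2 (0.60, adjusted p = 0.0127), beside a median of 0.05 over all genes. Against basal cells 3 of 8 differed, beside 25.7% of all genes (9.60% higher and 16.1% lower) and a median of -0.12. The change was higher in luminal ER- cells for Tgfbr3 (0.89), where basal cells fell more, and lower for Inhbb (-1.11) and Ltbp1 (-2.37). Against fibroblasts 6 of 9 differed, beside 13.4% of all genes (6.05% higher and 7.37% lower) and a median of -0.24. It was higher for Inhba (4.65) and lower for Tgfb2 (-2.73), Tgfbr1 (-1.29), Tgfbr2 (-1.59), Tgfbr3 (-1.30) and Inhbb (-2.97). With library totals alone these medians moved up by 0.30, 0.40 and 0.48, and the differences in Inhbb against basal cells and in Tgfbr1 and Tgfbr3 against fibroblasts were no longer called. Without the mouse block the differences in Inhba against luminal ER+ cells (1.69, adjusted p = 0.238 by edgeR) and fibroblasts (4.74, adjusted p = 0.278), in Inhbb against basal cells and in Tgfbr3 against fibroblasts were lost, and with free RNA subtracted those in Tgfbr2 against luminal ER+ cells and in Tgfbr3 (0.48, adjusted p = 0.276) and Inhbb against basal cells. The Inhbb difference against basal cells was lost under 4 of 6 alternatives. With library totals called genes that were higher made up 80.9%, 70.2% and 75.8% of all calls, against 55.4%, 37.4% and 45.1%.

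EYFP marks cells in which Cre was active, which allows a comparison inside the KO glands. Luminal ER- cells with at least 1 EYFP UMI (488 and 600 cells) were compared with those without (1669 and 1562 cells), with the mouse as a block. 8 of 9 genes were called, beside 40.2% of all genes (19.5% higher and 20.7% lower). Tgfb2 stood at 69.1 and 65.4 CPM in EYFP- cells and 120 and 121 CPM in EYFP+ cells (log2 difference 0.83 ± 0.07, adjusted p = 1.44e-08 by edgeR). Inhba stood at 72.1 and 28.5 CPM against 107 and 53.8 CPM (0.71 ± 0.09, adjusted p = 2e-06) and Tgfbr2 at 47.7 and 48.2 CPM against 65.8 and 78.4 CPM (0.57 ± 0.09, adjusted p = 1.63e-05). These ligand and receptor genes and Tgfb3 (0.44) were thus higher in EYFP+ cells of both mice. Inhbb was lower in EYFP+ cells, at 62.2 and 78.8 CPM against 41.0 and 40.5 CPM (-0.81 ± 0.09, adjusted p = 7.44e-07 by edgeR), as were Tgfbr3 (-1.02), Tgfbr1 (-0.61) and Tgfb1 (-0.31). Tgfb1 therefore went lower with EYFP inside KO glands while being higher in KO than in CTL. Ltbp1 did not pass the test (51.9 and 44.3 CPM against 51.3 and 46.7 CPM). EYFP+ cells were deeper, with medians of 14373.5 and 17023 UMIs against 7812 and 7846.5. After thinning each cell to 2000 UMIs 6 genes were called, with Tgfb1 and Tgfbr1 lost, and without the mouse block 3 were called, Tgfb2, Tgfbr2 and Inhbb. Over all genes these fits called 2138 of 9909 and 868 of 12642, against 5085 of 12642. A cell with no EYFP UMI may still have had active Cre, since 1 transcript can be missed.

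The KO luminal ER- clusters differed along the same genes, which is a description, since they were clustered on these genes too. In the cluster led by Ube2c and Ankrd1 (1053 and 845 cells) Inhba stood at 117 and 59.0 CPM, Tgfb2 at 107 and 124 CPM and Tgfbr2 at 60.9 and 75.6 CPM. In the cluster led by Wfdc3 and Kcnj15 (1104 and 1317 cells) the same genes stood at 15.3 and 11, 42.1 and 38.7, and 38.8 and 39.7 CPM. Inhbb ran the other way, at 38.0 and 32.6 CPM in the former and 90.7 and 106 CPM in the latter. A further epithelial cluster found only in KO libraries (341 and 322 cells), led by Crct1 and Msln and named as no lineage by its markers, held the highest cluster levels of Tgfb2 (285 and 347 CPM) and Inhba (212 and 138 CPM), and Tgfbr2 in it was 288 and 296 CPM. The unnamed clusters together held 27.9% and 29.0% of all Tgfb2 UMIs of the KO libraries.

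**Figure D3:**
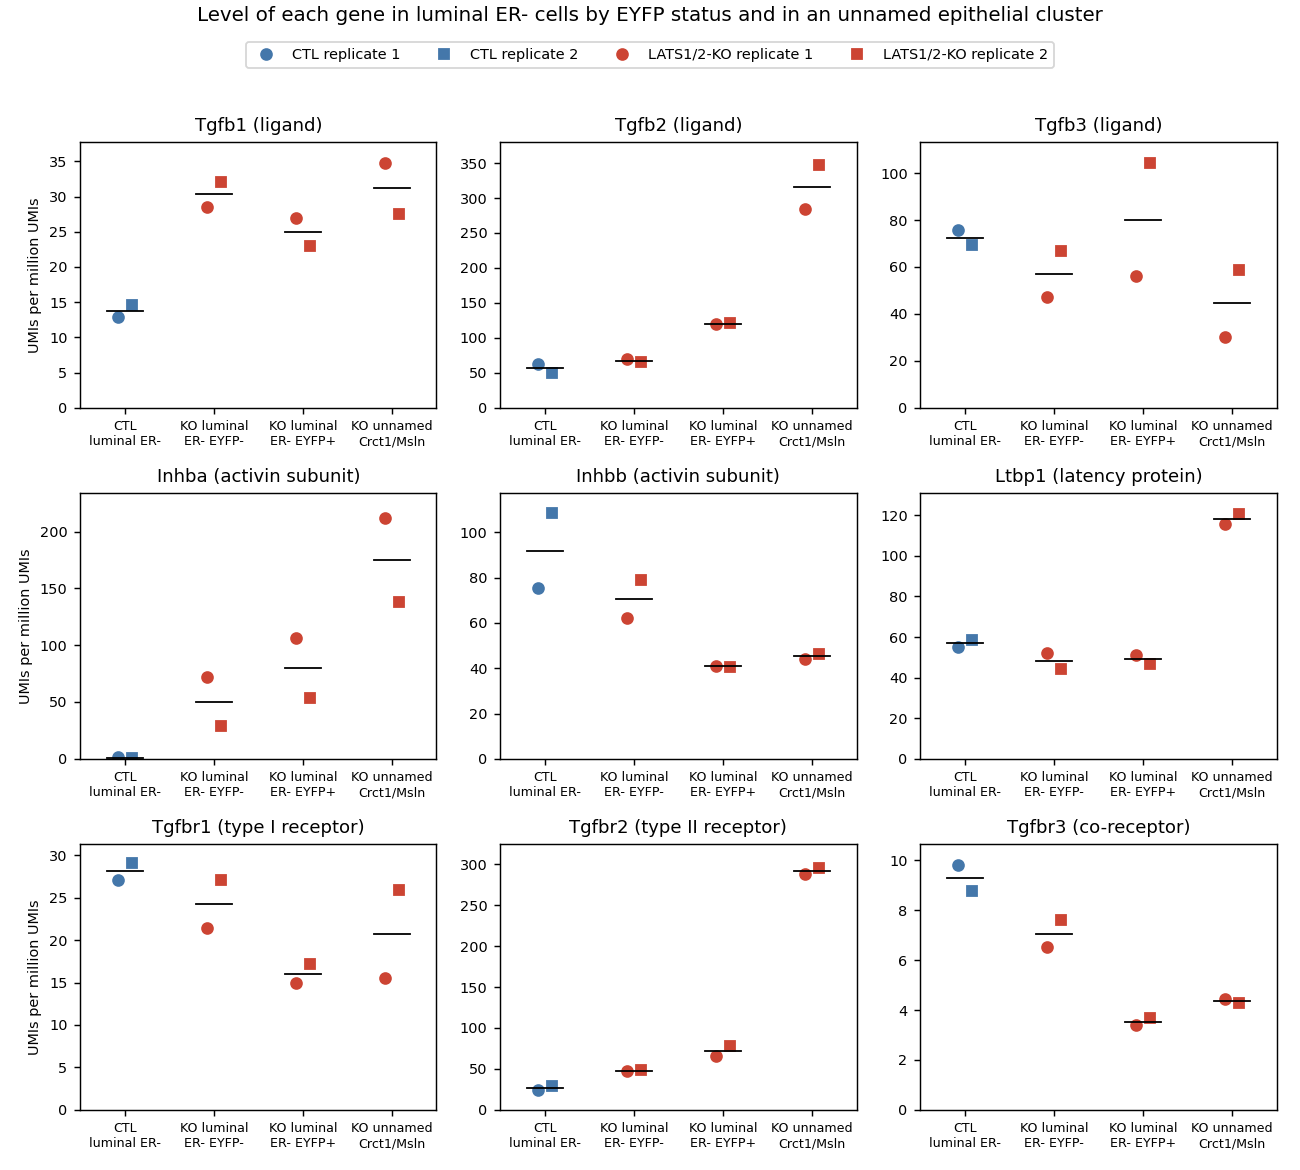
Level (y axis, CPM) of the genes in CTL luminal ER- cells, in KO luminal ER- cells without and with EYFP, and in the KO cluster led by Crct1 and Msln (x axis). Circles are replicate 1 and squares replicate 2. Tgfb2 goes from 63.3 and 49.3 CPM in CTL through 69.1 and 65.4 CPM and 120 and 121 CPM to 285 and 347 CPM.

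Classes with few cells or counts are given as values. Lymphocytes had Tgfb1 at 247 and 244 CPM in CTL and 55.7 and 217 CPM in KO, from 4 UMIs in KO replicate 1 (log2 fold change -0.63, adjusted p = 0.635 by edgeR). In KO macrophages Tgfbr1 stood at 105 and 112 CPM and Tgfbr2 at 86.3 and 92.6 CPM. CTL libraries held only 10 and 8 macrophages, so no comparison was made. Perivascular cells, 7 in CTL replicate 2, had Tgfb3 at 156 and 195 CPM in CTL and 44.1 and 81.1 CPM in KO, with no test. Adipocytes came from KO replicate 2 alone and had Tgfbr2 at 99.6 CPM.

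The rest of the pathway was described by 4 lists of genes: latency and activation (14 genes), other receptors, co-receptors and antagonists (12), SMADs and their regulators (16) and known response genes (12). In luminal ER- cells 8 of 12 response genes were higher and 2 lower, with a median log2 fold change of 3.91 against 0.01 over all genes. They were led by Postn (0.918 and 0.6 CPM against 68.3 and 64.8 CPM, 6.09), Col1a1 (5.88), Cdkn2b, a cell cycle inhibitor (1.11 and 0.923 CPM against 29.6 and 27.5 CPM, 4.46) and Ctgf (14.9 and 10.3 CPM against 503 and 751 CPM, 5.30). Postn is also in the myCAF-like marker list and Col1a1 in the fibroblast marker list, whose summed levels are given above, and Ctgf is a known target of YAP and TAZ. Postn and Col1a1 were also called higher in KO luminal ER+, basal, fibroblast, endothelial and lymphocyte sums. In lymphocytes, which are not known for making these matrix proteins, Postn had 0 CPM in both CTL libraries and 237 and 209 CPM in KO, and Col1a1 went from 1.74 and 3.69 CPM to 209 and 256 CPM. Both lymphocyte levels in KO lay above those in KO luminal ER- cells. With free RNA subtracted, Col1a1 had too few counts left to be tested in luminal ER-, luminal ER+ and basal cells. In the luminal classes this follows from the method, since their free RNA share was itself estimated from Col1a1, Col1a2 and Col3a1. Col1a1 was not called in endothelial cells (log2 fold change 0.16, adjusted p = 0.972 by edgeR). Postn kept its call in luminal ER- cells (6.33, adjusted p = 3.37e-06 by edgeR). Both genes were still called in lymphocytes after the subtraction, at log2 fold changes of 7.79 for Col1a1 and 8.50 for Postn. Where the counts of these genes outside fibroblasts come from was not tested. Of the antagonists, Fst, which encodes the activin-binding follistatin, rose with Inhba, from 1.87 and 1.02 CPM to 164 and 110 CPM (log2 fold change 6.20 ± 0.31, adjusted p = 1.25e-05 by edgeR). Acvrl1, a type I receptor, fell from 17.5 and 18.0 CPM to 1.75 and 2.14 CPM (-3.52), and Bambi, a decoy receptor, from 31.2 and 29.5 CPM to 13.0 and 12.6 CPM (-1.58). Among the antagonists and other receptors 4 genes were higher, 3 lower and 5 not called. Of the SMAD list 4 were higher and 5 lower, the lowest p-values being those of Nedd4l (-1.35), Skil (-1.45), Tgif2 (-1.13) and Tgif1 (-0.70), which encode corepressors of SMADs and, for Nedd4l, a ubiquitin ligase that acts on them, and all 4 were lower. Of the latency list 4 were higher, among them Fbn1 (4.43) and the integrin gene Itgb1 (1.40), and 6 lower, among them Lrrc32 (-2.16) and Itgav (-0.89). Read against the 33.6% of all genes that were higher and the 31.4% lower, the counts in these last 3 lists were near the background.

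Luminal ER+ cells had 8 of 11 tested response genes and 6 of 12 latency genes higher, with the others not called, and Fst higher (3.89). The latency genes included the integrin genes Itgb3 (4.82) and Itgb1 (1.20) and the protease gene Furin (0.85). The backgrounds there were 15.1% higher and 14.0% lower. In basal cells, where 16.8% of all genes were higher and 16.7% lower, 5 latency genes were higher and 2 lower of 12, with Ltbp2 at 261 and 237 CPM in CTL against 50.8 and 47.2 CPM in KO (-2.45). Of 16 SMAD-list genes 5 were higher, among them Pmepa1, a feedback inhibitor (1.63), and 2 lower, among them Smad7 (-0.83). Response genes in basal cells were split, 4 higher and 2 lower of 11, with Tagln lower (-1.34) and Fn1 higher (4.99). In fibroblasts, where 1.54% of all genes were higher and 1.90% lower, 0 of 16 SMAD-list genes were called by edgeR, which is near that background. Of these, 2 had an unadjusted p under 0.05, and DESeq2 called 1. Their median log2 fold change was 0.66 against 0.08 over all genes. Of the 12 response genes in fibroblasts Postn (2.63) and Col1a1 (1.49) were higher and Tgfbi lower (-2.63). Fst was higher there too (2.63). Ltbp4 was lower (-2.87), but its symbol is listed more than once in the tables and the first entry was used, so this value is uncertain. In endothelial cells (3.09% of all genes higher and 3.62% lower) 4 of 10 response genes were higher, Postn and Col1a1 included, and 3 lower, and Acvrl1 (-1.80) and Bambi (-1.32) were lower. In EYFP+ against EYFP- luminal ER- cells 6 of 11 response genes were higher and 3 lower, beside 19.5% and 20.7% of all genes, and 9 of 16 SMAD-list genes were lower, with the others not called.

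**Figure D4:**
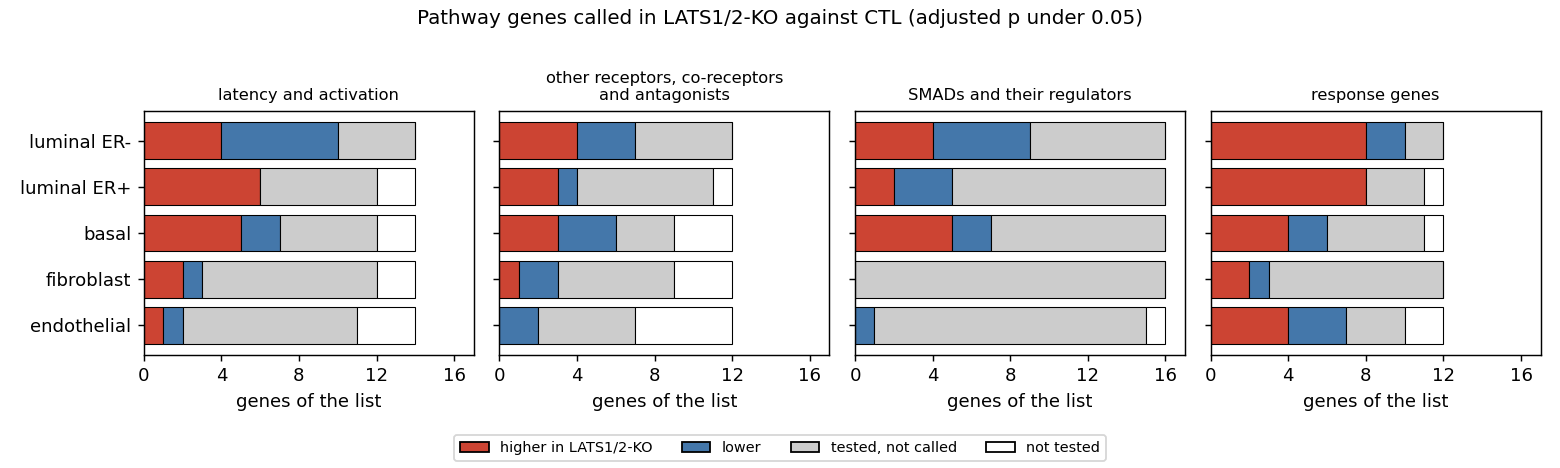
Number of genes (x axis) of each pathway list that were called higher, called lower, not called or not tested in LATS1/2-KO against CTL, by cell class (y axis). Response genes are mostly higher in luminal ER- cells (8 of 12) and luminal ER+ cells (8 of 11). In fibroblasts 0 of 16 SMAD-list genes are called, beside 3.45% of all genes.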

How the data were processed

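Live mammary cells of 4 mice were profiled with the 10x Genomics 3′ v3 kit. The authors deposited UMI counts per gene and barcode as filtered matrices. The submitters' processing notes name Cell Ranger 3.1.0 and mm10, whereas the file headers name Cell Ranger 6.1.2. The depth and the cells of each class are given with the results.

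Cells with under 500 genes or at least 20% mitochondrial UMIs were removed. Counts were normalized with sctransform 0.4.2 in Seurat 5.3.0 and clustered on 3000 variable genes and 20 components at a resolution of 0.4 (0.8 for stromal subtypes). All 9 genes were among the variable genes. An epithelial cluster took a lineage's name where more than 0.5 of that lineage's markers stood at least 2-fold above the level in non-epithelial cells, a limit set after marker levels were seen, and 1184 cells stayed unnamed. Scrublet (scanpy 1.11.5) called 1, 0, 4 and 80 doublets, too few to be a working filter, so none were removed in the results as reported. Counts were summed per library and class with at least 20 cells in each library and tested with edgeR 4.0.16 (glmQLFit, TMM, filterByExpr), with DESeq2 1.42.0 as an alternative. Each statistic was tested on simulated data. Nothing in the labels beyond 1 mouse per library pairs the samples: the deviations of libraries with the same number correlated at 0.02 to 0.08. All 9 genes are named in every class, and for each pathway list and class at most 4 genes, those with the lowest adjusted p. The 9 genes and the lists were chosen with earlier results of these data known. Alternatives covered scaling, filters, doublets, free RNA, thinning, the clustering and leaving out each library.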

Additional observations from a re-analysis of the deposited data

Results flagged for a closer look

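The change from CTL to KO differed between cell classes, by an interaction test at an adjusted p under 0.05, in 13 pairings of a gene with a class. Set against luminal ER+ cells, the log2 change in luminal ER- cells differed by -1.49 for Tgfbr1, 0.60 for Tgfbr2, 1.89 for Inhba and -1.30 for Ltbp1. Tgfbr1 fell in luminal ER- cells and rose in luminal ER+ cells, and Ltbp1 did the same. Set against basal cells the difference was 0.89 for Tgfbr3, -1.11 for Inhbb and -2.37 for Ltbp1. Set against fibroblasts it was -2.73 for Tgfb2, -1.29 for Tgfbr1, -1.59 for Tgfbr2, -1.30 for Tgfbr3, 4.65 for Inhba and -2.97 for Inhbb. Inhbb fell in luminal ER- cells and rose in fibroblasts. CTL fibroblasts were 60 and 25 cells, and the differences of Tgfbr2, Tgfb2 and Inhbb against them kept their calls under all 6 alternatives run. Those of Tgfbr3 (2 alternatives), Tgfbr1 (1) and Inhba (1) were lost, as were those of Tgfbr3 (1) and Inhbb (4) against basal cells and of Inhba (1) and Tgfbr2 (1) against luminal ER+ cells.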

How the results depend on the processing

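Of 79 fits of a gene in a comparison 42 were called, and none of the 42 changed direction. Over 885 alternatives 759 kept direction and side of the threshold, 65 lost and 26 gained a call, and 35, all of results not called, changed sign. CTL fibroblasts, endothelial cells and basal cells had low counts, but luminal ER+ cells lost calls too.

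Members called in luminal ER+ cells went from 5 to 2 with DESeq2 and 2 with thinned sums. All genes called there went from 3639 of 12522 to 2338 of 13405 and 2091 of 9308. In basal cells 3 became 1 with DESeq2, and all genes went from 3131 of 9336 to 1268 of 11573. In fibroblasts 3 became 1 with thinned sums, where Tgfb2 and Inhbb had too few counts to be tested, and all genes went from 299 of 8675 to 210 of 1891. In endothelial cells 3 became 1 with DESeq2, 0 without a low-count filter and 1 with thinned sums, where Tgfb2 had too few counts to be tested. All genes there went from 508 of 7571 to 243 of 6440, 0 of 15392 and 170 of 3352. Leaving out a library moved the counts of these classes as well. Lymphocytes ranged from 0 to 1. The luminal ER- count of 7 ranged from 7 to 8 leaving out a library. With 1 library left in a condition the lone library is assumed to vary like the others. The cause was not tested. The EYFP count went from 8 to 3 without the mouse block, while all genes called went from 5085 to 868 of 12642.

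The replicate numbers do not pair the mice. With the replicate block the called counts were 9 in luminal ER-, 6 in luminal ER+, 3 in basal, 4 in fibroblast, 3 in endothelial and 0 in lymphocyte cells. All genes gave, in order, 8716 of 13591, 3986 of 12522, 3436 of 9336, 879 of 8675, 646 of 7571 and 124 of 3914.

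Values with a changed sign, none called, were as follows. Luminal ER+ Tgfbr3 was 0.16 without the highest Scrublet scores and 0.63 with classes from log-normalized counts. Basal Inhbb was 0.084 with library totals, 0.035 with DESeq2, 0.079 without a filter, 0.062 at a 10% mitochondrial limit, 0.26 with free RNA subtracted, 0.057 with log-normalized classes and -0.28 to 0.31 leaving out a library. Basal Tgfbr2 was -0.98 with free RNA subtracted and -0.25 to 0.94 leaving out a library, and basal Tgfb2 0.089 with log-normalized classes and -0.42 to 0.28 leaving out a library. Fibroblast Tgfb3 was 0.023 with DESeq2, 0.093 without a filter, 0.019 without the highest Scrublet scores, 0.010 with free RNA subtracted, 0.044 with log-normalized classes, 0.024 when clustered without these genes and -0.0091 to 0.094 leaving out a library. Fibroblast Tgfbr3 was -0.34 to 0.70 leaving out a library and Tgfb1 -0.69 in iCAF-like cells alone. Endothelial Tgfb1 was -0.11 with thinned sums and lymphocyte Tgfbr2 -1.71 to 0.21 leaving out a library. Among differences between luminal ER- and other cells, Tgfb3 was -0.086 (luminal ER+) and -0.0078 (basal) without the highest Scrublet scores and -0.017 (basal) without the mouse block. Free RNA subtraction gave Tgfb2 0.23 and Tgfbr3 1.01 (luminal ER+). Library totals gave Tgfb1 0.17 and Tgfbr1 0.010 (basal) and Tgfb1 0.16 (fibroblast). Ltbp1 was -0.019 between EYFP+ and EYFP- cells of all epithelial classes.

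Library totals, iCAF-like cells alone, the unnamed clusters and all epithelial cells were chosen after seeing the data. The planned macrophage comparison was not run, since CTL held 10 and 8 cells.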

Other observations

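The genes whose pattern was most like each of the 9 were looked up by Pearson's r over 28 sums (cell class by library), on log CPM, among genes with a mean of at least 10 CPM. The 28 points share libraries and classes, so r is a description with no test. Tgfbr3 had the closest matches, Dpysl3 (0.94), Palm (0.94) and Tshz2 (0.92). Tgfb2 was nearest to Ccdc141 (0.87), Wwc2 (0.82) and Amot (0.80), the last of which encodes a binding partner of YAP. Tgfb3 was nearest to Cyr61 (0.80), a known YAP target, Ugp2 (0.79) and Cryab (0.77). Inhba was nearest to the prostaglandin synthase gene Ptgs2 (0.86), then to Anln (0.78) and the matrix gene Tnc (0.77). Inhbb was nearest to Samd4b (0.82), Yap1 (0.81) and Myo10 (0.81). Tgfb1 was nearest to Fxyd5 (0.86), Cerk (0.86) and Akap13 (0.84), Ltbp1 to Ptdss2 (0.87), Rhbdf1 (0.85) and Rnf217 (0.84), Tgfbr1 to Arhgap24 (0.86), Ftl1 (0.85) and Apoe (0.84), and Tgfbr2 to Csgalnact1 (0.86), Tmem100 (0.80) and Rnf144a (0.78).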
